A study of Mus musculus with 9 samples.

Results

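The phagocyte NADPH oxidase was followed through 7 of its genes, which were taken by symbol from the 23284 gene symbols of each library: Cybb and Cyba (the membrane-bound flavocytochrome), Ncf1 and Ncf4 (cytosolic organisers), Rac1 and Rac2 (small GTPases) and Hvcn1 (a proton channel). Hvcn1 is no subunit in the strict sense but serves the same enzyme. All 7 members were listed in all 9 libraries and passed the filter on low values in every comparison. RNA had been prepared from myeloid-derived suppressor cells (MDSCs) isolated from spleen, in mice that carried allografts of spindle cell tumour (SCT) cells, a skin tumour line from a p16-knockout mouse. There were 3 libraries each of PMN-MDSCs, the Ly6G+ neutrophil-like subset, from WT mice, of Mo-MDSCs, the Ly6G- Gr-1+ monocyte-like subset, from WT mice, and of Mo-MDSCs from mice labelled p16/p21 double knockout (DKO). All hosts thus carried the same tumour, the WT mice had the strain label C57BL/6J and the DKO mice C57BL/6, and the knockout was carried by the whole mouse, not by the MDSCs alone. The labels give an age of 3 weeks, which in the study's methods is the time from inoculation to collection. PMN-MDSCs from DKO mice were not analysed here.

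The oxidase carries electrons from cytosolic NADPH across a membrane to oxygen and so makes superoxide, which neutrophils and monocytes release into phagosomes or to the outside. Cybb (gp91phox, NOX2) holds the electron path and needs Cyba (p22phox) for its stability. On activation, cytosolic subunits, among them Ncf1 (p47phox) and Ncf4 (p40phox), move to the membrane together with GTP-bound Rac, while Hvcn1 lets protons follow the electrons. In MDSCs the reactive oxygen species made in this way are known as one of the means by which T cells are suppressed, mainly in the granulocytic subset. Message levels, which are the quantity given here, do not measure assembly or activity of the enzyme.

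The values were FPKM, the number of fragments of a gene divided by the length of its exons and by a measure of library size. Which measure was used is not given in the sources used here. Levels of different genes can be compared per length. Total FPKM per library was between 494252 and 916642 and was highest in the PMN-MDSCs (711675 to 916642, against 549976 to 618250 in WT and 494252 to 534354 in DKO Mo-MDSCs), while the upper quartile was between 22.0 and 24.5 in all libraries. The numbers of reads are not in the files, so depth is known only relative to WT Mo-MDSC replicate 1, at 0.809 to 1.31 times that library. No 2 libraries held identical values. Nothing in the labels says that replicates came from separate mice, so p-values measure only the spread between these libraries. The targeted genes did not tell the genotypes apart. Cdkn1a (p21) was at 8.18, 6.46 and 8.04 FPKM in WT Mo-MDSCs and at 5.55, 8.52 and 6.00 in the libraries labelled DKO, and the ranges overlapped. Cdkn2a, the locus of p16 and p19Arf under a single symbol, was at 0.718, 0.772 and 0.432 FPKM in WT Mo-MDSCs and 0.258, 0.586 and 0 in the libraries labelled DKO. Which exons were deleted is not given in the sources used here, and values summed over a locus count reads from exons that remain, so directions below are those of the labels.

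Most markers of the labelled subsets followed the labels. Without overlap of the libraries, WT Mo-MDSCs were below PMN-MDSCs for 7 of 11 neutrophil markers and above them for 9 of 10 monocyte markers. The other neutrophil markers, Ltf, Camp, Ngp and Lcn2, overlapped between these groups, and so did the monocyte marker Csf1r. Cxcr2, a chemokine receptor of neutrophils, was at 590 to 875 FPKM in PMN-MDSCs and 5.37 to 18.6 in all 6 Mo-MDSC libraries, and Ccr2, a chemokine receptor of monocytes, was at 2.36 to 2.51 FPKM in PMN-MDSCs and 160 to 362 in Mo-MDSCs. Ly6g was not among the symbols. The summed level of 11 neutrophil markers was 102626 to 239813 FPKM in PMN-MDSCs, 31578, 18815 and 64756 in replicates 1, 2 and 3 of the WT Mo-MDSCs, and 13827, 18035 and 7457 in those of the DKO Mo-MDSCs. Without S100a8 and S100a9, which monocytes also express, the other 9 summed to 13544 to 35195, 5415 to 16919 and 2414 to 5176 FPKM. All WT Mo-MDSC libraries thus stood above all DKO ones in both neutrophil sums, while Mmp8 alone went the other way without overlap. Replicate 3 had the highest sum both among the PMN-MDSCs and among the WT Mo-MDSCs. Summed monocyte markers (10 of 10 genes) were 1106 to 1154 FPKM in PMN-MDSCs, 2540 to 2910 in WT and 2047 to 2260 in DKO Mo-MDSCs. Red pulp macrophage markers (9 genes) summed to 8000 to 8821, 5006 to 5981 and 6360 to 9154 FPKM in the same order, or without Hmox1 (8 genes) to 6015 to 6955, 3739 to 4718 and 4126 to 6322, where the Mo-MDSC groups overlapped, and B cell markers (6 genes) to 1530 to 1758, 1115 to 1265 and 1188 to 1512. Summed erythroid, T, NK, eosinophil and basophil and platelet markers overlapped between the Mo-MDSC groups. The dendritic list summed to 1299 to 1613 FPKM in WT and 1939 to 2246 in DKO. Most of that sum was H2-Aa alone, at 1256 to 1572 FPKM in WT and 1894 to 2197 in DKO. Of its other genes, Flt3 was lower in DKO without overlap (2.21 to 3.29 against 3.54 to 4.44 FPKM). Itgax (18.3 to 20.6 against 17.7 to 18.1) and Ccr7 (18.4 to 26.9 against 13.7 to 16.2) were higher without overlap. Promyelocyte markers (Mpo, Elane and others) were at 24.3 to 56.2 FPKM in WT and 11.4 to 19.5 in DKO Mo-MDSCs. The part of these cells in the results below was not tested, and in such bulk libraries fewer cells of a type and less RNA per cell cannot be told apart.

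**Figure D1:**
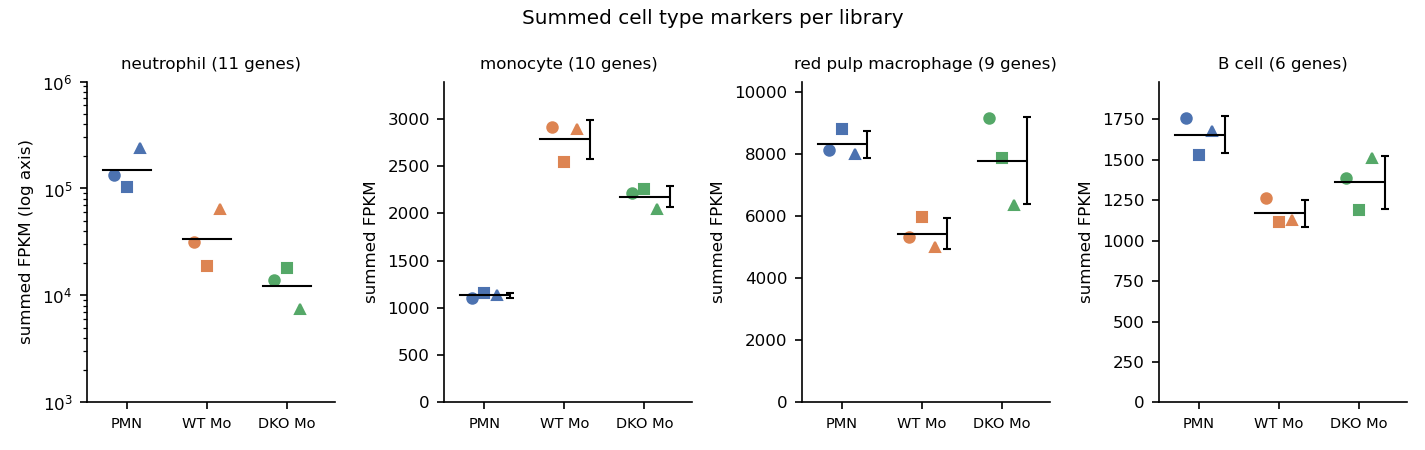
Summed FPKM of 4 lists of cell type markers in each library, with PMN-MDSCs, WT Mo-MDSCs and DKO Mo-MDSCs on the x axis, circles, squares and triangles for replicates 1, 2 and 3, a line for the mean (geometric mean on the log axis of the neutrophil list) and bars for the SD. The neutrophil sum, most of which is S100a8 and S100a9, was lower in every Mo-MDSC library than in every PMN-MDSC library and lower in every DKO than in every WT Mo-MDSC library. Without these 2 genes, WT Mo-MDSC replicate 3 (16919 FPKM) was above PMN-MDSC replicate 2 (13544).

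All 7 members were abundant messages in all groups. Their mean levels lay between the 91.0 percentile (Hvcn1 in WT Mo-MDSCs) and the 98.8 percentile (Cyba in PMN-MDSCs) of the genes with a mean of at least 1 FPKM in the group. In PMN-MDSCs the order of the mean FPKM levels was Cyba (864), Rac2 (599), Ncf1 (283), Cybb (214), Rac1 (211), Ncf4 (205) and Hvcn1 (114). Cyba stood above Rac2, and Rac2 above Ncf1, without overlap of the libraries, whereas the ranges of Ncf1 and Cybb, of Cybb and Rac1 and of Rac1 and Ncf4 overlapped. In WT Mo-MDSCs the order was Cyba (653), Cybb (371), Rac2 (216), Rac1 (200), Ncf1 (155), Ncf4 (147) and Hvcn1 (78.8). Cybb had moved to the second place there, above every value of Rac2, and the neighbours from Rac2 to Ncf4 overlapped. In DKO Mo-MDSCs it was Cyba (538), Cybb (246), Rac1 (177), Rac2 (176), Ncf1 (121), Ncf4 (95.3) and Hvcn1 (86.6), with overlap between Rac1 and Rac2, between Ncf1 and Ncf4 and between Ncf4 and Hvcn1.

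**Figure D2:**
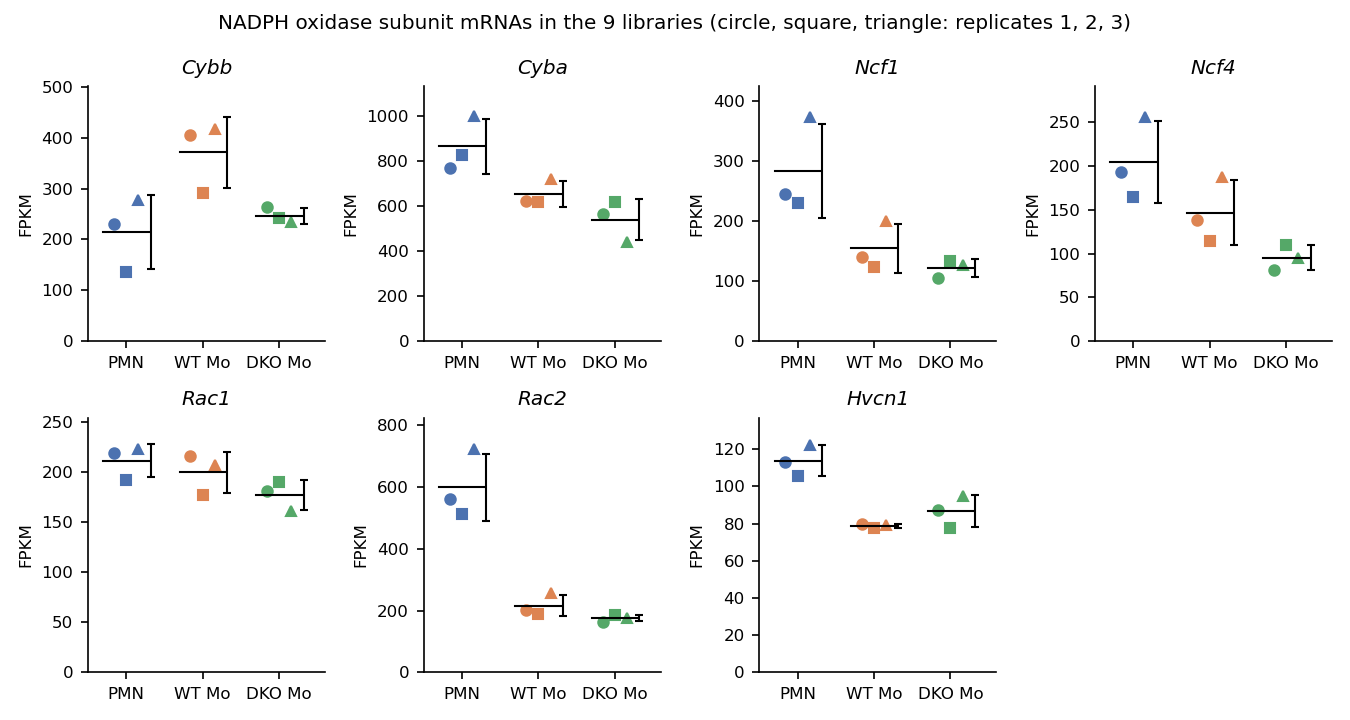
FPKM of the 7 members in each library on linear axes from 0, for PMN-MDSCs, WT Mo-MDSCs and DKO Mo-MDSCs, with circles, squares and triangles for replicates 1, 2 and 3, a line for the mean and a bar for the SD (n = 3). Rac2 was at 514 to 722 FPKM in PMN-MDSCs and at 165 to 256 in all Mo-MDSC libraries, and Cybb was highest in WT Mo-MDSCs.

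The first comparison, of WT Mo-MDSCs against PMN-MDSCs and called the subset comparison here, asked how the oxidase genes differ between the monocytic and granulocytic subsets of WT mice. WT Mo-MDSCs had more Cybb message and less Rac2, Ncf1, Hvcn1 and Cyba message than PMN-MDSCs, by limma on log2(FPKM + 0.1) with Benjamini-Hochberg adjustment over 11491 genes. Thus 1 of the 7 members was higher and 4 were lower at an adjusted p-value below 0.05, where 18.5% of all genes tested were called higher and 20.6% lower. The median log2 difference of the members was -0.49, against 0.01 over all genes tested. The libraries of the groups did not overlap for the same 4 members lower and 1 higher, which held for 26.4% and 26.2% of all genes.

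Of the flavocytochrome, the catalytic subunit Cybb (chrX:9435252-9487771, minus strand, GRCm38) was at 230.5, 135.9 and 276.9 FPKM in PMN-MDSC replicates 1, 2 and 3 and at 406.1, 291.0 and 416.7 in those of WT Mo-MDSCs. Every WT Mo-MDSC library was above every PMN-MDSC library, and replicate 2 was the lowest in both groups. The log2 difference of Cybb was 0.83 ± 0.27 (SE, n = 3 and 3), a 1.78-fold higher level, with a limma adjusted p-value of 0.0462. A fit blocked on replicate gave a limma adjusted p-value of 0.000818, with 3167 of 11491 genes called higher and 3417 lower. The pairing by replicate number was inferred from these same data. In the fits without the block the call was lost without WT Mo-MDSC replicate 1 or 3 or PMN-MDSC replicate 1 or 2, and without PMN-MDSC replicate 2 the log2 difference was 0.54 (limma adjusted p = 0.0671).

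Its partner Cyba (chr8:122424776-122432930, minus strand) was at 766.5, 823.4 and 1001 FPKM in PMN-MDSCs and 622.0, 617.6 and 718.7 in WT Mo-MDSCs. The libraries of the groups did not overlap, in the direction opposite to Cybb. Its log2 difference was -0.40 ± 0.13 (SE, limma adjusted p = 0.0437), and it turned to 0.02 with quantile normalization and to 0.04 when every library was set to the same total FPKM. The call was lost in 5 of the 6 fits that left out a library, with log2 differences from -0.48 to -0.29 over all 6.

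Among the cytosolic organisers, Ncf1 (chr5:134220053-134229625, minus strand), the adaptor whose phosphorylation starts assembly, was at 245.5, 229.6 and 372.9 FPKM in PMN-MDSCs and 140.2, 123.0 and 200.5 in WT Mo-MDSCs. All WT Mo-MDSC libraries were below all PMN-MDSC libraries, and replicate 3 was the highest in both groups. The difference on the log2 scale was -0.87 ± 0.24 (SE, limma adjusted p = 0.0254), a 1.82-fold lower level. Without WT Mo-MDSC replicate 1 or 2 or PMN-MDSC replicate 3 the adjusted p-value was 0.0765, 0.0723 or 0.0612, and it was 0.123 with quantile normalization. Ncf4 (chr15:78244801-78262580, plus strand), which binds phosphatidylinositol 3-phosphate on phagosomes, was at 192.8, 164.8 and 256.4 FPKM in PMN-MDSCs and 138.0, 114.7 and 187.5 in WT Mo-MDSCs. Its groups overlapped through the highest Mo-MDSC library, replicate 3. Its log2 difference was -0.49 ± 0.22 (SE, limma adjusted p = 0.121). With the replicate number as a block, a pairing inferred from these data, the limma adjusted p-value was 0.000304. Within each replicate number Ncf4 was lower in the WT Mo-MDSCs. Without WT Mo-MDSC replicate 3 the log2 difference was -0.68 (limma adjusted p = 0.0463).

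The GTPases parted. Rac1 (chr5:143503634-143528036, minus strand), the form that most cell types express, was at 218.6, 192.3 and 223.2 FPKM in PMN-MDSCs and 215.7, 176.8 and 207.1 in WT Mo-MDSCs. The groups overlapped, and the log2 difference was -0.08 with a 95% confidence interval from -0.33 to 0.16 (limma adjusted p = 0.568). With both groups set to the same total FPKM it was 0.36 (adjusted p = 0.0219), and with quantile normalization 0.36 (adjusted p = 0.0171). Rac2 (chr15:78559167-78572783, minus strand), the form of blood cells and the main Rac of neutrophils, was at 561.9, 513.8 and 722.2 FPKM in PMN-MDSCs and 201.6, 190.5 and 255.5 in WT Mo-MDSCs. No WT Mo-MDSC library came near a PMN-MDSC library. The log2 difference of Rac2 was -1.47 ± 0.16 (SE, limma adjusted p = 0.000555), a 2.77-fold lower level, and it stayed between -1.60 and -1.33 whichever library was left out.

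Hvcn1 (chr5:122206804-122242297, plus strand) was at 113.2, 105.7 and 122.4 FPKM in PMN-MDSCs and 79.8, 77.5 and 79.1 in WT Mo-MDSCs. The Mo-MDSC libraries lay close together and all below the PMN-MDSC libraries. The log2 difference was -0.53 ± 0.08 (SE, limma adjusted p = 0.00196), and it was -0.08 (adjusted p = 0.489) with the same total FPKM in every library. Genes on the opposite strand overlap Cyba (Gm20388), Ncf1 (Gtf2ird2), Rac1 (Daglb, Gm42502) and Hvcn1 (Tctn1) in the GENCODE M21 annotation of GRCm38, and although the libraries were stranded, the strand setting of the counting is not given in the sources used here.

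**Figure D3:**
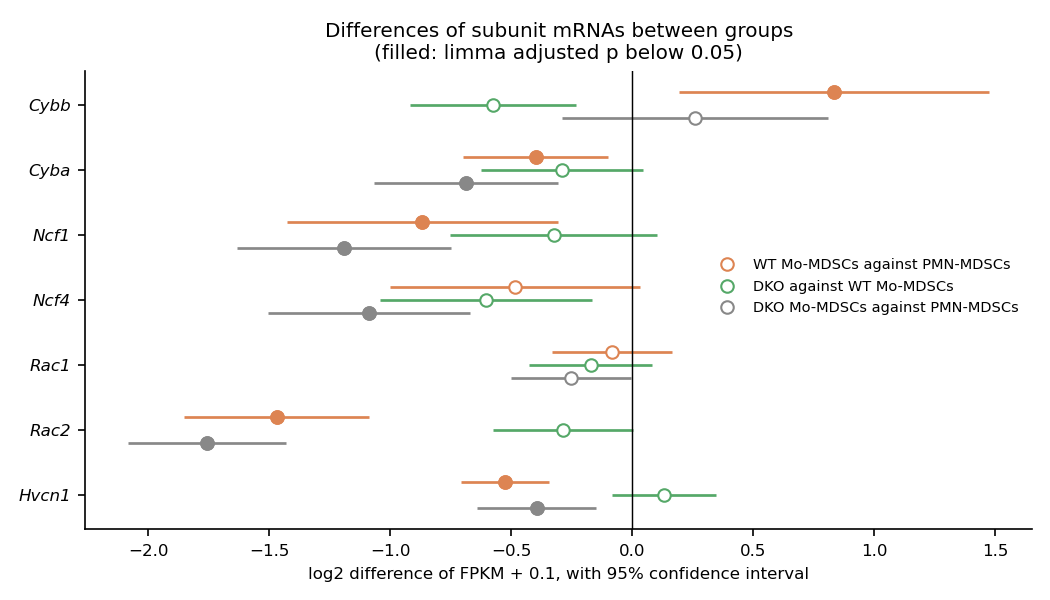
Log2 difference of FPKM + 0.1 (x axis) with its 95% confidence interval for each member (y axis) in WT Mo-MDSCs against PMN-MDSCs (orange), DKO against WT Mo-MDSCs (green) and DKO Mo-MDSCs against PMN-MDSCs (grey), with filled circles for limma adjusted p-values below 0.05. Rac2 was -1.47 and -1.76 in both comparisons with PMN-MDSCs, and no circle of DKO against WT Mo-MDSCs is filled.

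The size of these differences depended on how the libraries were scaled. Setting every library to the same total FPKM moved the median log2 difference of all genes to 0.45 in the subset comparison, to 0.14 between the Mo-MDSCs of the genotypes and to 0.61 in DKO Mo-MDSCs against PMN-MDSCs. In the subset comparison 5853 genes were then called higher and 937 lower, against 2121 and 2371 with the values as deposited. Under the same total, Cybb and Rac1 were higher and Rac2 and Ncf1 lower in WT Mo-MDSCs at an adjusted p-value below 0.05, and Cyba, Ncf4 and Hvcn1 were not called. Cybb and Rac2 kept their direction and their call in this comparison under all 4 scalings.

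**Figure D4:**
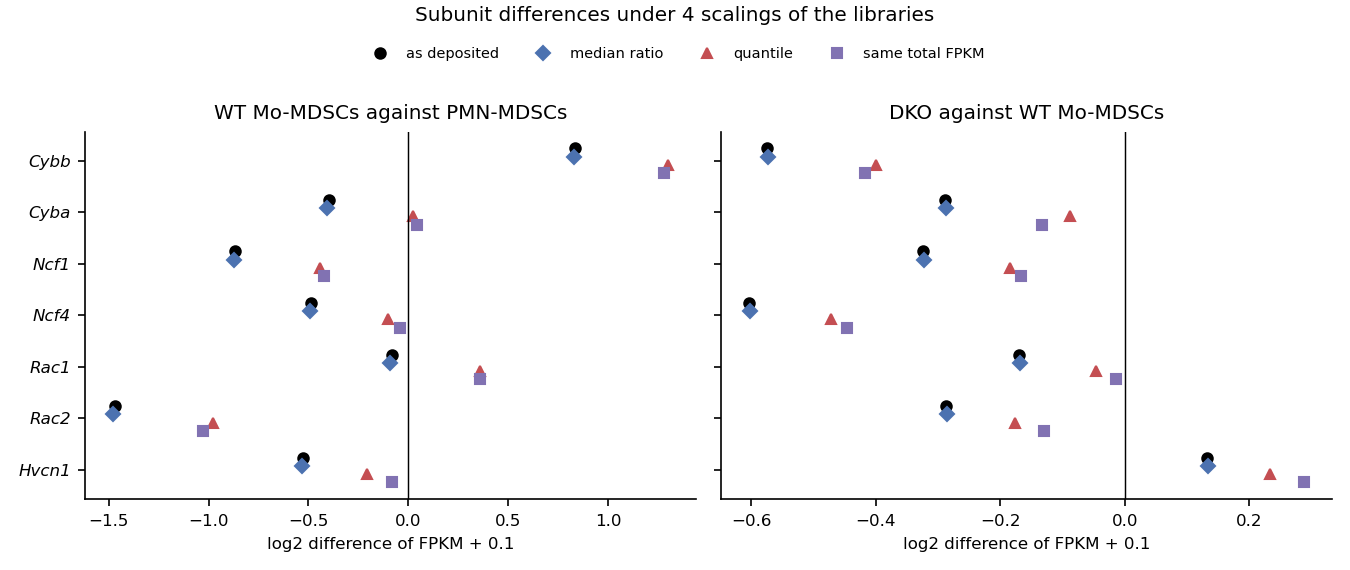
Log2 difference of FPKM + 0.1 (x axis) of each member (y axis) in WT Mo-MDSCs against PMN-MDSCs (left) and DKO against WT Mo-MDSCs (right) with the values as deposited, median ratio scaling, quantile normalization and the same total FPKM in every library. On the left, Cyba moved from -0.40 to 0.04 and Rac1 from -0.08 to 0.36 between the deposited values and the same total, while Rac2 stayed at -0.98 or below.

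Ratios of members within a library do not depend on a factor that scales all values of that library. Quantile normalization is no such factor, and the ratios were not recalculated with it. Rac2 to Rac1 was 2.57, 2.67 and 3.24 in PMN-MDSC replicates 1, 2 and 3, 0.935, 1.08 and 1.23 in WT and 0.910, 0.976 and 1.10 in DKO Mo-MDSCs. Rac2 was thus the more abundant GTPase message in PMN-MDSCs, and the messages were about level in Mo-MDSCs of both genotypes. The ratio was 2.62-fold lower in the WT Mo-MDSCs (log2 difference -1.39 ± 0.15, SE, exact two-sided permutation p = 0.1). That is the smallest p-value 3 against 3 libraries can give, and no adjusted value over the 15 tests of 5 ratios in 3 comparisons was below 0.136.

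Cyba to Cybb, the parts of the flavocytochrome, was 3.33, 6.06 and 3.61 in PMN-MDSCs, 1.53, 2.12 and 1.72 in WT and 2.13, 2.54 and 1.88 in DKO Mo-MDSCs. Both Mo-MDSC groups were below the PMN-MDSCs in every library, and they overlapped each other. The log2 difference was -1.23 ± 0.30 (SE) for WT Mo-MDSCs against PMN-MDSCs, and 0.29 ± 0.19 for DKO against WT. Ncf1 to Cybb was 1.07, 1.69 and 1.35 in PMN-MDSCs, 0.345, 0.423 and 0.481 in WT and 0.396, 0.550 and 0.543 in DKO Mo-MDSCs. Ncf1 message exceeded Cybb message in all PMN-MDSC libraries and was below it in all Mo-MDSC libraries. Hvcn1 to Cybb was 0.491, 0.778 and 0.442 in PMN-MDSCs, 0.197, 0.266 and 0.190 in WT and 0.332, 0.321 and 0.406 in DKO Mo-MDSCs. Here the 3 groups did not overlap, with DKO between the others, and DKO stood 0.71 ± 0.19 (SE) above WT Mo-MDSCs on the log2 scale.

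Ncf4 to Ncf1, partners in the cytosolic complex, varied less between libraries than the other ratios. It was 0.785, 0.718 and 0.688 in PMN-MDSCs, 0.984, 0.933 and 0.935 in WT and 0.773, 0.828 and 0.75 in DKO Mo-MDSCs. The WT Mo-MDSCs stood above both other groups without overlap. The log2 difference was 0.38 ± 0.06 (SE) for WT Mo-MDSCs against PMN-MDSCs and -0.28 ± 0.05 for DKO against WT, both with an exact permutation p of 0.1 and an adjusted value of 0.136.

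**Figure D5:**
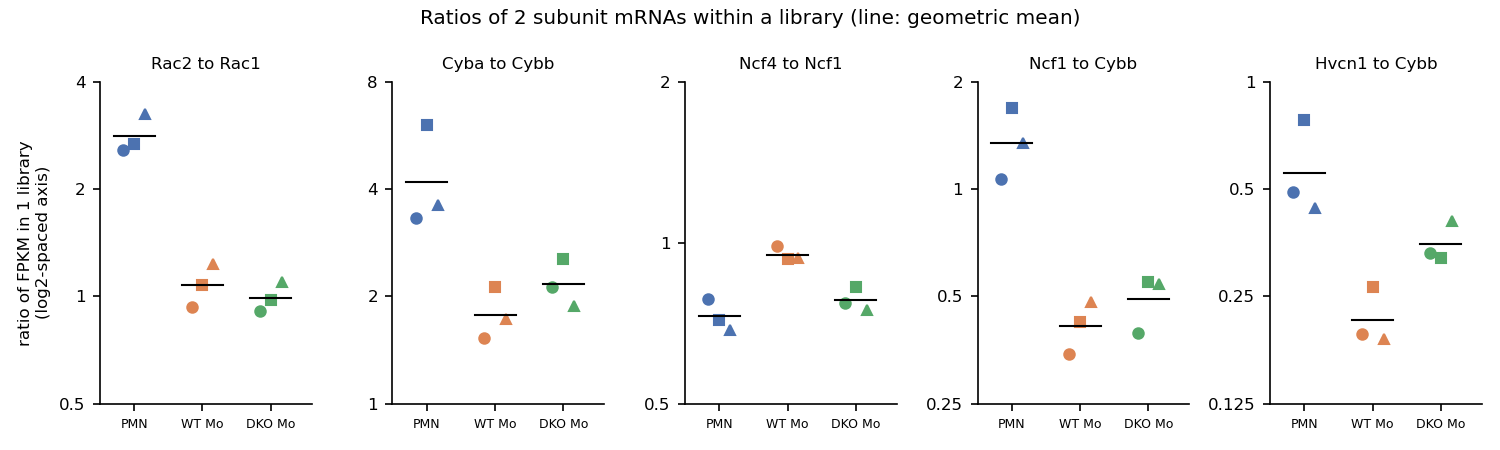
Ratios of the FPKM of 2 members within each library on log2-spaced axes, for PMN-MDSCs, WT Mo-MDSCs and DKO Mo-MDSCs, with circles, squares and triangles for replicates 1, 2 and 3 and a line for the geometric mean. Rac2 to Rac1 was 2.57 to 3.24 in PMN-MDSCs and 0.910 to 1.23 in Mo-MDSCs, and Ncf4 to Ncf1 was highest in WT Mo-MDSCs.

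The sequences before the starts of Cybb, Cyba and Ncf1 are shown because only these members had a matched upstream sequence. They are the 250 bases before each RefSeq start on GRCm38.p6, on the strand of the gene: chrX:9469325-9469574, minus strand, for Cybb, chr8:122432941-122433190, minus strand, for Cyba, and chr5:134229626-134229875, minus strand, for Ncf1. The Cybb window lies within the longer gene of the GENCODE annotation. Sequences for 3 of the 7 members were matched, and Ncf4, Rac1, Rac2 and Hvcn1 are named only. Capitals mark matches, on either strand, to any of 4 motifs, none of which overlap here. The core bound by the myeloid factor PU.1 was searched for as GAGGAA. The GC box, the site of the widely expressed factor Sp1, was searched for as GGGCGG. The TATA box, which places the start of many genes, was searched for as TATAAA. The last motif was the CCAAT box, spelled as its name.
Cybb: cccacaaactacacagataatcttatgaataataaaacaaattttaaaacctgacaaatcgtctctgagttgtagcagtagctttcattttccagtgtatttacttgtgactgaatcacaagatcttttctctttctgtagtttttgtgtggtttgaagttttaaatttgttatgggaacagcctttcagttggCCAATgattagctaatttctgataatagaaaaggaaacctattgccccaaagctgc
Cyba: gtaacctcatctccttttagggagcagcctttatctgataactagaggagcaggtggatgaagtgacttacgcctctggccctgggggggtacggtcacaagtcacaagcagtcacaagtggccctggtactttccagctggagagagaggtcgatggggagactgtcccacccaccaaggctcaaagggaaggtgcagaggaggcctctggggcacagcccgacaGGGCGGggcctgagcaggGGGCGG
Ncf1: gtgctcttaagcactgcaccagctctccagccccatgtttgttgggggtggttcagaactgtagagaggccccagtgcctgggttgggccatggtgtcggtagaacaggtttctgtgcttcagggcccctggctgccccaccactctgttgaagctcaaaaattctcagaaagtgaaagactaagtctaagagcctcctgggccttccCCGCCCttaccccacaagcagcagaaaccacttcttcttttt
The CCAAT box was found in 33.8% of the 32536 distinct windows of this length, and the printed Cybb line holds 1, from -56 to -52 counted back from the start. The GC box was found in 33.0% of the windows. It occurred at -24 to -19 and at -6 to -1 before Cyba, and at -42 to -37 before Ncf1 on the opposite strand, so that the capitals there are its complement read backwards. The letters GAGGAA (23.4% of the windows) and TATAAA (12.3%) were not in these 3 windows. Other spellings of the PU.1 core and of the TATA box were not searched for. The absence of these letters thus does not show that the sites are absent, and says nothing of binding there or elsewhere.

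The second comparison, of DKO against WT Mo-MDSCs and called the genotype comparison here, asked which oxidase genes differ in Mo-MDSCs when the mice lack p16 and p21. None of the 7 members passed an adjusted p-value of 0.05 in limma over 11451 genes, where 0.166% of all genes were called higher and 0.0873% lower. At an unadjusted p-value below 0.05, 2 members (Cybb and Ncf4) were lower and 0 higher, against 9.74% and 5.27% of all genes. The same 2 members passed the study's thresholds for this comparison, a fold below 0.75 and p below 0.05, with the p-value taken here without adjustment, as did 4.43% of all genes. Cybb, Cyba, Ncf4 and Rac2, 4 of the 7, were lower in every DKO than in every WT library, and 0 were higher in this way, against 12.9% and 7.96% of all genes. The median log2 difference of the members was -0.29, that of all genes tested -0.02.

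Cybb was at 264.2, 241.8 and 233.3 FPKM in DKO Mo-MDSC replicates 1, 2 and 3, against 406.1, 291.0 and 416.7 in WT. The DKO libraries lay close together below the lowest WT library. The log2 difference of Cybb was -0.57 ± 0.15 (SE, 95% confidence interval -0.92 to -0.23), with an unadjusted limma p of 0.00500 and an adjusted p of 0.183. Over the fits without single libraries it was between -0.74 and -0.48, with adjusted p-values from 0.0562 to 0.590. Ncf4 was at 80.8, 110.1 and 94.9 FPKM in DKO Mo-MDSCs, against 138.0, 114.7 and 187.5 in WT. The highest DKO library was just below the lowest WT library. For Ncf4 the log2 difference was -0.60 ± 0.19 (SE, interval -1.04 to -0.16), with an unadjusted limma p of 0.0135 and an adjusted p of 0.228.

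The other members showed smaller differences. Cyba was at 561.6, 615.0 and 437.9 FPKM in DKO Mo-MDSCs, with a log2 difference of -0.29 (interval -0.62 to 0.05, limma adjusted p = 0.385). Rac2 was at 164.7, 185.5 and 176.9 FPKM, with a log2 difference of -0.29 (interval -0.57 to 0.00174, limma adjusted p = 0.334). Both were below the lowest WT value, by little. Ncf1 was at 104.6, 133.0 and 126.7 FPKM, overlapping the WT libraries, with a log2 difference of -0.32 (interval -0.75 to 0.10, adjusted p = 0.443). Rac1 was at 181.0, 190.0 and 161.0 FPKM, with a log2 difference of -0.17 (interval -0.42 to 0.08, adjusted p = 0.490). Hvcn1, at 87.6, 77.6 and 94.7 FPKM, was the member with a positive log2 difference, 0.13 (interval -0.08 to 0.35, adjusted p = 0.528).

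Neutrophil markers, taken as a sum, moved with this comparison. Their sum was 19.9%, 11.9% and 40.8% of the PMN-MDSC mean in replicates 1, 2 and 3 of the WT Mo-MDSCs, and 8.72%, 11.4% and 4.70% in the DKO libraries. Without S100a8 and S100a9 it was 34.1%, 23.7% and 74.0% in WT and 15.0%, 22.7% and 10.6% in DKO. Of the 11 markers 10 had lower log2 values in DKO, 6 of them without overlap of the libraries, and 0 were called. The other, Mmp8, was higher in every DKO library (71.7 to 112 FPKM) than in every WT Mo-MDSC library (42.3 to 55.2). In WT Mo-MDSCs, Ngp, Camp, Lcn2 and Ltf (means 4434, 2552, 1715 and 1099 FPKM) made up most of the sum without S100a8 and S100a9. Cxcr2, Mmp9 and Retnlg had means there of 11.8, 20.9 and 83.7 FPKM, against 713, 1063 and 4041 in PMN-MDSCs. Monocyte markers also had lower sums in DKO. WT Mo-MDSC replicate 3, with the highest neutrophil sum, had the highest Cybb, Cyba, Ncf1, Ncf4 and Rac2 values of the Mo-MDSC libraries. Of these genes, Cybb had a lower mean in PMN-MDSCs (214 FPKM) than in WT Mo-MDSCs (371), and the others a higher one. Cybb was at 406.1 FPKM in WT Mo-MDSC replicate 1, with a neutrophil sum of 19.9%, and at 416.7 in replicate 3, with 40.8%. Without WT Mo-MDSC replicate 3 the log2 differences were -0.48 for Cybb, -0.41 for Ncf4, -0.22 for Cyba, -0.16 for Rac2 and -0.12 for Ncf1. The part of other cells in these differences was not tested. The strain labels differ between the genotypes as well, and Nnt, which carries a deletion in the C57BL/6J substrain, was at 7.78, 6.94 and 7.03 FPKM in WT and 8.24, 10.1 and 11.3 in DKO Mo-MDSCs (log2 difference 0.43, limma adjusted p = 0.222). Genotype and substrain cannot be told apart here. The members lie on chromosomes X, 5, 8 and 15, and the part of DNA linked to the targeted loci was not tested.

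Between DKO Mo-MDSCs and PMN-MDSCs, where subset and genotype differ together, 5 members were lower at an adjusted p-value below 0.05 and 0 were higher, against 21.9% and 17.4% of 11544 genes. In this comparison 6 members were lower and 0 higher without overlap, against 27.1% and 25.5% of all genes. It shares its libraries with the comparisons above. The limma log2 differences were -1.76 for Rac2 (adjusted p = 5.82e-05), -1.19 for Ncf1 (0.00203), -1.09 for Ncf4 (0.00233), -0.69 for Cyba (0.0125) and -0.40 for Hvcn1 (0.0210). Cyba had no call, and Hvcn1 turned to 0.04 and 0.20, with quantile normalization and with the same total FPKM. Cybb, the member that was higher in WT Mo-MDSCs, was at a log2 difference of 0.26 (interval -0.29 to 0.81, limma adjusted p = 0.410) in the DKO libraries. Without PMN-MDSC replicate 2 that value was -0.04.

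Of the other oxidase genes and assembly factors, 13 of 14 symbols were listed and 4 passed the filter: Rac3, BC017643, Rap1a and Rap1b. Nox3, Duox2, Duoxa1 and Duoxa2 were listed at 0 in every library, and Nox1, Nox4, Noxa1 and Duox1 at no more than 0.186 FPKM, and Cybb was the only listed NOX or DUOX catalytic subunit above that level in any library. BC017643, the gene now called Cybc1, whose protein helps the flavocytochrome to fold, was at 70.2, 66.8 and 80.0 FPKM in PMN-MDSCs, 69.4, 58.3 and 66.9 in WT and 59.4, 61.1 and 56.7 in DKO Mo-MDSCs. Its log2 differences were -0.16 (adjusted p = 0.266) and -0.13 (adjusted p = 0.520), both positive under the same total FPKM. Rap1b, a GTPase found with the flavocytochrome, was lower in WT Mo-MDSCs by a log2 difference of -0.55 (adjusted p = 0.0135), which was not called with quantile normalization or the same total.

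Proteins that load, unload or read Rac were measured in 25 of 26 genes, and in the subset comparison 5 were higher and 9 lower, while under the same total FPKM 12 were higher and 3 lower. The median log2 difference of this list was -0.16. Over all genes tested 18.5% were higher and 20.6% lower, with a median of 0.01. Under the same total FPKM 5853 of 11455 genes were higher and 937 lower, with a median of 0.45. In the genotype comparison the median of all genes was -0.02. The counts and medians of the lists below stand against these same values. Tiam1, a Rac exchange factor, was at 2.28, 2.73 and 3.99 FPKM in PMN-MDSCs and 11.3, 9.47 and 12.4 in WT Mo-MDSCs, a log2 difference of 1.88 ± 0.21 (SE, limma adjusted p = 0.000580). Tiam2 (0.62), the GTPase-activating proteins Racgap1 (0.69) and Arhgap17 (0.51) were also higher in WT Mo-MDSCs. The Rac-directed GTPase-activating protein Arhgap25 (-1.15), the effectors Iqgap1 (-1.15) and Pak2 (-0.80) and the exchange factor Def6 (-0.73) were lower. None of the 25 was called in the genotype comparison, with a median of -0.12. Tiam2 was at 4.50, 3.78 and 4.93 FPKM in WT and 2.28, 2.73 and 2.78 in DKO Mo-MDSCs, without overlap (log2 difference -0.74, adjusted p = 0.139).

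Of 25 genes of signalling that activates the oxidase, 1 was higher and 14 lower in the subset comparison, against 6 higher and 4 lower under the same total FPKM, and the median was -0.28. S100a8 and S100a9, calcium-binding proteins that bring arachidonic acid to the oxidase and are also neutrophil markers of the sum above, had log2 differences of -2.34 and -2.38 (limma adjusted p = 0.0109 and 0.00898). With quantile normalization they were -0.51 and -0.10 and not called, and the calls were also lost without a filter on low values (limma adjusted p = 0.0966 and 0.0937), without variance moderation (0.0649 and 0.0572) and with replicates 2 and 3 only (0.0894 and 0.0809). Pik3r5, a regulatory subunit of the PI3-kinase gamma that acts downstream of chemoattractant receptors (-0.88), and the integrin chain Itgb2 (-0.77) were lower too. Prkcd, a protein kinase C isoform that phosphorylates Ncf1, was higher by a log2 difference of 0.34 (adjusted p = 0.0474). Without WT Mo-MDSC replicate 1 or 3 or PMN-MDSC replicate 1 or 2 Prkcd had no call (limma adjusted p up to 0.146), and 0 genes of the list were then higher. In the genotype comparison 0 of the 25 were called, and the median was -0.08.

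NADPH, the substrate of the oxidase, is supplied by the pentose phosphate pathway and by dehydrogenases. Of 10 measured genes 2 were higher and 3 lower in WT Mo-MDSCs (5 and 2 under the same total FPKM), with a median of -0.02. Taldo1 (-1.22), Pgd (-1.13), the pathway's second NADPH-producing enzyme, and the NAD kinase Nadk (-0.52) were lower, and Idh1 (0.48) and Me2 (0.22) were higher. The call of Me2 was lost in all 6 fits that left out a library (limma adjusted p up to 0.144), which left 1 gene higher, and Nadk had no call under the same total FPKM. No gene of the 10 was called in the genotype comparison.

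The list for removal of superoxide and hydrogen peroxide also held genes of other functions, such as Hmox1. It was measured in 26 of 29 symbols, with 1 higher and 8 lower in the subset comparison. Under the same total FPKM 10 were higher and 4 lower. Slc7a11, the cystine importer that feeds glutathione synthesis, was at 7.11, 4.88 and 5.64 FPKM in PMN-MDSCs, 0.378, 0.239 and 0.371 in WT and 1.22, 1.26 and 0.980 in DKO Mo-MDSCs. The 3 groups did not overlap. Slc7a11 passed the filter only through the PMN-MDSCs in the subset comparison, so it had to differ there, and it is 1 of the 8 genes counted as lower. Txn1 (-1.54), Glrx (-1.33) and glutathione reductase Gsr (-1.24) were lower in WT Mo-MDSCs, and the mitochondrial superoxide dismutase Sod2 (0.31) was higher. Sod2 had no call without WT Mo-MDSC replicate 2 or 3 or PMN-MDSC replicate 3 (limma adjusted p up to 0.0575).

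In the genotype comparison 1 of 25 genes of this wider list was called, a gene that acts on haem. Hmox1, haem oxygenase, was at 1241.8, 1262.2 and 1266.5 FPKM in WT and 2831.8, 2844.3 and 2233.4 in DKO Mo-MDSCs, and the log2 difference was 1.06 (limma adjusted p = 0.0299). Hmox1 is also one of the red pulp macrophage markers. The other 8 of them summed to 4095, 4718 and 3739 FPKM in WT and 6322, 5017 and 4126 in DKO Mo-MDSCs, with overlap, and the part of those cells was not tested. The call of Hmox1 was kept without DKO Mo-MDSC replicate 3 (limma adjusted p = 0.0402) and lost without each of the other 5 libraries (0.0631 to 0.195), with log2 differences from 1.00 to 1.18 over all 6 fits. It was also lost without a filter on low values, without variance moderation and with replicates 2 and 3 only (limma adjusted p = 0.150, 0.308 and 0.438). Gclm, a subunit of the enzyme that starts glutathione synthesis, was at 24.3, 39.1 and 25.8 FPKM in WT and 53.0, 68.9 and 55.5 in DKO Mo-MDSCs, without overlap and without a call (log2 difference 1.01, adjusted p = 0.111).

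Of 15 measured transcription factors known to act on these promoters, 3 were higher and 8 lower in WT Mo-MDSCs (4 and 4 under the same total FPKM), with a median of -0.50. Cebpd, a C/EBP factor, was at 100.9, 99.99 and 114.9 FPKM in PMN-MDSCs and 18.9, 15.6 and 21.2 in WT Mo-MDSCs (log2 difference -2.50, limma adjusted p = 1.97e-05). Satb1 (-1.11), Irf1 (-0.82) and Nfe2l2 (-0.73), the NRF2 gene, were lower as well. Cebpa, at 13.8, 12.1 and 10.5 FPKM in PMN-MDSCs and 33.4, 28.5 and 27.1 in WT Mo-MDSCs, was higher (log2 difference 1.28, adjusted p = 0.000314), as were Irf8 (0.45), a regulator of Cybb transcription in monocytes, and Nfkb1 (0.33). Nfkb1 had no call without WT Mo-MDSC replicate 1 or 3 or PMN-MDSC replicate 1 or 2 (limma adjusted p up to 0.0905). In the genotype comparison 0 of the 15 were called. Cebpe, a factor of late granulocyte development, was at 29.0, 23.0 and 63.1 FPKM in WT and 15.1, 24.7 and 10.2 in DKO Mo-MDSCs, with overlap (log2 difference -1.15, adjusted p = 0.277).

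The members did not share a single profile over the 9 libraries. Likeness was measured as the root mean square difference of log2(FPKM + 0.1) after each gene's own mean was subtracted. The nearest pair of members was Ncf1 and Ncf4 (0.173), and the farthest was Cybb and Rac2 (1.05). Among 11725 genes, the nearest to Cybb were Csgalnact2 (0.159), Oas1g (0.171) and Aprt (0.185). Those nearest to Ncf1 were Plaur (0.0829), Triobp (0.0948) and Lasp1 (0.110), and to Ncf4 Gpi1 (0.101), Hmgb2 (0.111) and Itgam (0.115). Rac2 was nearest to Mboat7 (0.0636), Magi3 (0.0827) and Rps6ka2 (0.0978), and Rac1 to Dctn6 (0.0389), Fam175b (0.0428) and Sumo2 (0.0431). Cyba was nearest to D8Ertd738e (0.0565), Rpl37 (0.0608) and H2afv (0.0656), and Hvcn1 to Syk (0.0403), Mll5 (0.0525) and Baz2b (0.0537). Cybb had the most distant nearest gene of the 7.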

How the data were processed

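FPKM values of 9 stranded mRNA libraries, sequenced as 75-base single-end reads, were deposited by the authors, who mapped the reads to mm10 with TopHat2 2.0.13, Bowtie2 2.2.3 and SAMtools 0.1.19 and calculated FPKM with Cuffnorm 2.2.1. The annotation and the library scaling are not given in the sources used here. FPKM were used as deposited, not as counts, and depth in reads is unknown. The pseudocount understates fold changes of low genes. Groups and replicate numbers came from the labels. log2(FPKM + 0.1) was fitted with limma 3.58.1 (trended eBayes, two-sided) in R 4.3.3 for genes that reached 1 FPKM in 3 or more of a comparison's 6 libraries, and p-values were Benjamini-Hochberg adjusted over all genes tested. The fits were tested on simulated data. Ratios were tested with exact permutation tests (Python 3.11.15, scipy 1.17.1, pandas 2.3.3, numpy 2.4.6). Gene positions came from GENCODE M21 and upstream sequences from RefSeq, both on GRCm38.

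The members, lists and tests were chosen with earlier results of these data known, and 1 gene of a list is not reported here. Named genes were the members, BC017643, Nnt, targeted genes and markers, called list genes (at most the 4 largest log2 differences in each direction), and the 3 nearest genes of each member. List genes without a call and those named for overlap (Tiam2, Gclm and Cebpe in DKO against WT Mo-MDSCs, the other NOX genes) were given after their values were seen. Replicate numbers were taken to pair WT Mo-MDSCs with PMN-MDSCs, since deviations of same-numbered libraries from their group means correlated at 0.294, 0.483 and 0.200. The main fits did not use these pairs, which were inferred from the same data. The alternatives were pseudocounts of 1 and 0.01, other filters, all 9 libraries in 1 fit, 3 other scalings, no variance moderation, the study's fold thresholds, a replicate block, replicates 2 and 3 only, and leaving out each library.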

Additional observations from a re-analysis of the deposited data

How the results depend on the processing

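In WT Mo-MDSCs against PMN-MDSCs, 5 members were called (1 higher and 4 lower). Without a filter on low values 3 were called (0 higher). Of all genes 1941 of 17357 were then higher and 2357 lower, against 2121 and 2371 of 11491 in the main fit. Without variance moderation 2 were called (0 higher, 2 lower), beside 1751 and 1921 of all 11491 genes. With replicates 2 and 3 only 2 were called (0 higher, 2 lower), beside 1279 and 1681 of 11581. The fold thresholds with an unadjusted p-value gave 1 (0 higher, 1 lower), for which the share over all genes was not counted. Quantile normalization and the same total FPKM each gave 2 higher and 2 lower. Over all genes 2542 were then higher and 2041 lower with quantile normalization, and 5853 and 937 with the same total. Leaving out 1 library gave 2 to 4 calls, with 0 to 1 higher and 2 to 4 lower. Rac2 and Hvcn1 were called in all 6 of these fits, which over all genes called 1378 to 1798 higher and 1739 to 2113 lower. In DKO against WT Mo-MDSCs there were 0 calls under every alternative except the fold thresholds with an unadjusted p-value (2, both lower). In DKO Mo-MDSCs against PMN-MDSCs, 5 lower became 3 without variance moderation and by the fold thresholds. With quantile normalization and with the same total FPKM 2 were higher and 3 lower. Over all genes, 2004 higher and 2523 lower in the main fit became 1542 and 1919 without variance moderation. They became 2549 and 1991 with quantile normalization, and 7521 and 920 with the same total. Leaving out 1 library in this comparison gave 4 to 5 calls, beside 1315 to 1855 of all genes higher and 1781 to 2401 lower.

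Directions reversed mainly with scaling. In WT Mo-MDSCs against PMN-MDSCs, quantile normalization gave positive log2 differences for Cyba (0.0209), Rac1 (0.36) and BC017643 (0.10), and the same total FPKM for Cyba (0.0449), Rac1 (0.36), BC017643 (0.29) and Nnt (0.39). Rac1 was at -0.15 to 0.00301 over the fits that left out 1 library, with the positive value without WT Mo-MDSC replicate 2. BC017643 in DKO against WT Mo-MDSCs was 0.0247 under the same total. In DKO Mo-MDSCs against PMN-MDSCs, quantile normalization gave 0.31 for Rac1, 0.0419 for Hvcn1, 0.0269 for BC017643 and 0.0138 for Rap1b, the same total gave 0.35, 0.20 and 0.31 for the first 3, and Cybb was at -0.0378 to 0.48 over the fits that left out 1 library, the negative value being without PMN-MDSC replicate 2. The same total adds nearly the same amount to every gene's log2 difference (the median of all genes went from 0.01 to 0.45 in WT Mo-MDSCs against PMN-MDSCs), so genes slightly below 0 turned positive. The cause of the reversals with quantile normalization was not tested. Within-library ratios were recalculated with a pseudocount of 1, with replicates 2 and 3 only and without each library, but not with other scalings. All 120 of these differences in ratios kept their direction.

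With the replicate block, 1 higher and 5 lower members were called in WT Mo-MDSCs against PMN-MDSCs, the added member being Ncf4 (adjusted p = 0.000304), and over all genes 3167 and 3417 against 2121 and 2371. Same-numbered libraries correlated at 0.348, 0.226 and -0.070 for DKO and WT Mo-MDSCs. For DKO Mo-MDSCs and PMN-MDSCs they correlated at 0.256, 0.076 and -0.113. In these comparisons the numbers were therefore not taken as pairs. The library labels, however, run in sequence through the 3 groups within each replicate number, and what that stands for is not given. The block changed no member's call in those comparisons, while Hmox1 had none with it in DKO against WT Mo-MDSCs (adjusted p = 0.121). Precision is limited by 3 libraries per group, the median SE of the members' log2 differences being 0.144 to 0.164.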
